A study of Mus musculus with 6 samples.

Results

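The subject here is 33 RT-PCR assays for miRNAs of the miR-297, miR-466, miR-467 and miR-669 families in newborn mouse lung, out of 768 wells measured. They were chosen by name, with earlier results of these data already known. After the species prefix was dropped and letter case ignored, every well whose listed name began with one of these 4 family names was taken, whatever its letter, arm or minor-strand mark (#). Of the 33, 3 were named for miR-297, 10 for miR-466, 10 for miR-467 and 10 for miR-669. On the first card lay 11 and on the second card 22.

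Most miRNAs of these families come from a rodent-specific cluster inside an intron of Sfmbt2, a gene for a Polycomb-group protein. Sfmbt2 is imprinted, is expressed from the paternal allele in the placenta and other extraembryonic tissues, and its miRNA cluster is best known for a role in placental growth. The hairpins arose by repeated duplication, so the mature miRNAs resemble each other, and many are built from runs of alternating U and G. Outside the placenta, miR-467b is known as a repressor of lipoprotein lipase, miR-669a of the muscle regulator MyoD, and miR-466h of the survival gene Bcl2l2.

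The working name of the set, an Sfmbt2 intron cluster, was checked against RefSeq gene records (GRCm38.p6). The 4 families had 82 hairpin genes there, 72 of them within Sfmbt2 and 10 elsewhere. Inside Sfmbt2 were 29 miR-669, 24 miR-466, 14 miR-467 and 5 miR-297 hairpins. By name, 24 of the 33 assays matched hairpins within Sfmbt2 alone, and 1, miR-297a#, matched hairpins there and on chromosome 7. Another 5 matched a hairpin on a different chromosome, 2 were designed for rat miRNAs, and miR-466a-3p matched no hairpin name. RefSeq has a hairpin gene named Mir466, without a letter, within Sfmbt2, and it was not counted as a match for miR-466a-3p. The label therefore covers most of the assays and not all of them, and the set is called here by its 4 families.

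RefSeq (GRCm38.p6) gave a mature sequence for 5 of the 33 assays, and these are the 5 whose hairpins lie outside Sfmbt2. They are shown because they include the family member with the lowest Ct (miR-467F) and the one with the smallest p-value (miR-466J). Capitals mark the seed, bases 2 to 8, which directs target pairing.
miR-466J, chr10:60960802-60960824, + strand: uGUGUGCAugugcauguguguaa
miR-466k, chr3:85467396-85467418, + strand: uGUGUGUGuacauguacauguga
miR-467H, chr9:115381898-115381919, + strand: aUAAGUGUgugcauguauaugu
miR-467F, chr11:69635419-69635439, - strand: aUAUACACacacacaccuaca
miR-669n, chr3:115979905-115979924, + strand: aUUUGUGUguggaugugugu

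The 5 sequences had 5 distinct seeds. Alternation of U and G made up 63.6% of the steps between neighbouring bases of miR-466J, 59.1% of miR-466k, 47.6% of miR-467H and 68.4% of miR-669n. miR-467F is the exception, with 0% of such steps and 65% of C and A alternation, the complement of the others. No other assay among the 171 mouse assays outside these families with a RefSeq mature sequence shared a seed with the 5. Primers for sequences this alike can amplify a relative, and how far that happened here was not tested.

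The lungs came from mice placed under 12 hours of age in room air (3 samples) or 95% oxygen (3 samples) for 7 days, 168 hours in the hyperoxia group. This exposure is a model of oxygen injury in the immature lung, and the study asked which miRNAs differ. The right lung was taken after the pulmonary artery was flushed with buffer, and dams were rotated between the atmospheres. The labels give no strain, sex or litter and do not say that samples came from separate animals, so p-values measure the spread between these samples. Each value is a threshold cycle (Ct), the PCR cycle at which signal crosses a threshold. A lower Ct stands for more RNA, 1 cycle is a fold of 2 at full efficiency, and 40 marks a well without amplification. A Ct under 35 is called detected here. Per sample, 307 to 319 miRNA wells were detected on the first card and 268 to 293 on the second. Of the 33 assays here, 9 to 11 were detected per sample on the first card and 17 to 21 on the second.

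On the second card the values listed for room air replicate 1 and hyperoxia replicate 2 were identical in 382 of 384 wells, and in 21 of the 22 wells of these families. On the first card 0 of the 11 were identical. The shared values were left out of both samples, so second-card comparisons rest on 2 samples against 2 and first-card ones on 3 against 3. The assay numbers on the second card also run out of step with the names. All 8 names here that carry a number matched the number listed 3 wells later. Wells named for the abundant nuclear RNA U6 had Ct values of 8.94 to 10.04 there, against 23.3 to 40 for wells carrying U6's number, and the names were used.

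Differences between the groups are given on the log2 scale with their SE, negative where hyperoxia was lower, and were estimated with limma after each sample's values were set against the mean Ct of the miRNAs detected on that card. In all, 27 of the 33 assays were detected in at least 2 samples of each group and were tested. None differed past an adjusted p of 0.05 (limma, Benjamini-Hochberg over 551 assays), as for 0% of all assays tested, and adjusted p ran from 0.314 to 0.989. At an unadjusted limma p under 0.05, 5 of the 27 (miR-466J, miR-669E, miR-466g, miR-467H and miR-466b-3-3p, all on the second card) were lower in hyperoxia and 0 higher, where 5.44% of all assays were lower and 3.63% higher. The count depends on the reference. With each card's median Ct or with the first card's mean for both cards it was 2 lower and 1 higher (miR-466E-5P), with the first card's U6 2 lower, with quantile normalization or the small RNA controls 6 lower, and without normalization 9 lower. miR-669E and miR-466J were among those lower with all 7 references.

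Of the 27, 22 had a log2 fold change below 0, with a median of -0.50. Over all 551 assays 57.9% lay below 0 and the median was -0.12. Among second-card assays 17 of 18 were negative with a median of -0.96, while 56.6% of all assays of that card were negative. With the card's median Ct or the first card's mean as reference it was 10 of 18. Of all assays of that card, 32.5% and 21.3% were then negative. On the first card 5 of 9 were negative with a median of -0.13, against 58.9% and a median of -0.13 for all its assays. By family, 8 of 8 miR-669, 6 of 7 miR-466, 7 of 9 miR-467 and 1 of 3 miR-297 assays were negative, with medians of -0.74, -1.79, -0.15 and 1.73. The miR-466 count was 6 of 7 with each of the 7 references. For miR-669 it was 5 of 8 with each card's median Ct (median -0.56) or the first card's mean for both cards (median -0.33). For miR-467 it was 5 of 9 and 4 of 9 with these, with medians of -0.0005 and 0.02, and for miR-297 0 of 3. Of all 551 assays, 47.7% and 41.9% were negative with these references, with medians of 0.04 and 0.18.

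**Figure D1:**
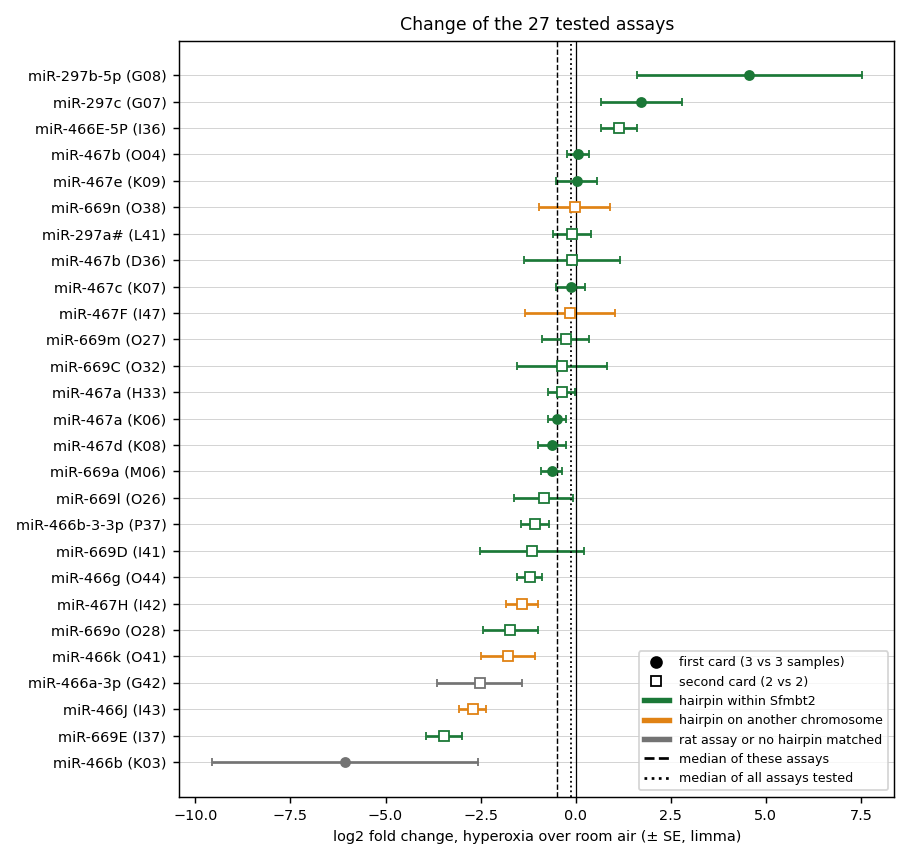
Log2 fold change of hyperoxia over room air with its limma SE (x axis) for the 27 tested assays (y axis, plate well in brackets), coloured by where RefSeq places the hairpin; circles are first-card and squares second-card assays. Most points lie left of 0, the median of -0.50 (dashed) lies left of that of all 551 assays at -0.12 (dotted), and the widest bars belong to miR-466b and miR-297b-5p.

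In room air, levels spanned many cycles. miR-467F had the lowest mean Ct, 18.4 ± 1.49 (SD, n = 2), followed by miR-467a of well H33 at 19.7 ± 0.059 (SD, n = 2). miR-467b (22.8 ± 0.40, SD, n = 3) and miR-467a of well K06 (22.8 ± 0.34, SD, n = 3) came next, ahead of miR-466J (23.0 ± 0.37, SD, n = 2). The latest of those tested was miR-297b-5p at 30.4 ± 0.75 (SD, n = 3). Of 26 neighbouring pairs in this order, 21 differed by less than the larger SD of the pair, so most of the order is not resolved. Ct also depends on each assay's primers and card, and the order is one of Ct and not of molecules.

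The median room air Ct of the first-card assays of these families was 25.01, later than the 22.7 of all assays tested on that card. On the second card it was 26.5 against 25.5. The bulk of the set was thus measured in the later range of the lung's detected miRNAs, and 9 of the 27 had a room air mean Ct under 25. In bulk lung, fewer cells making an miRNA and less of it per cell cannot be told apart.

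**Figure D2:**
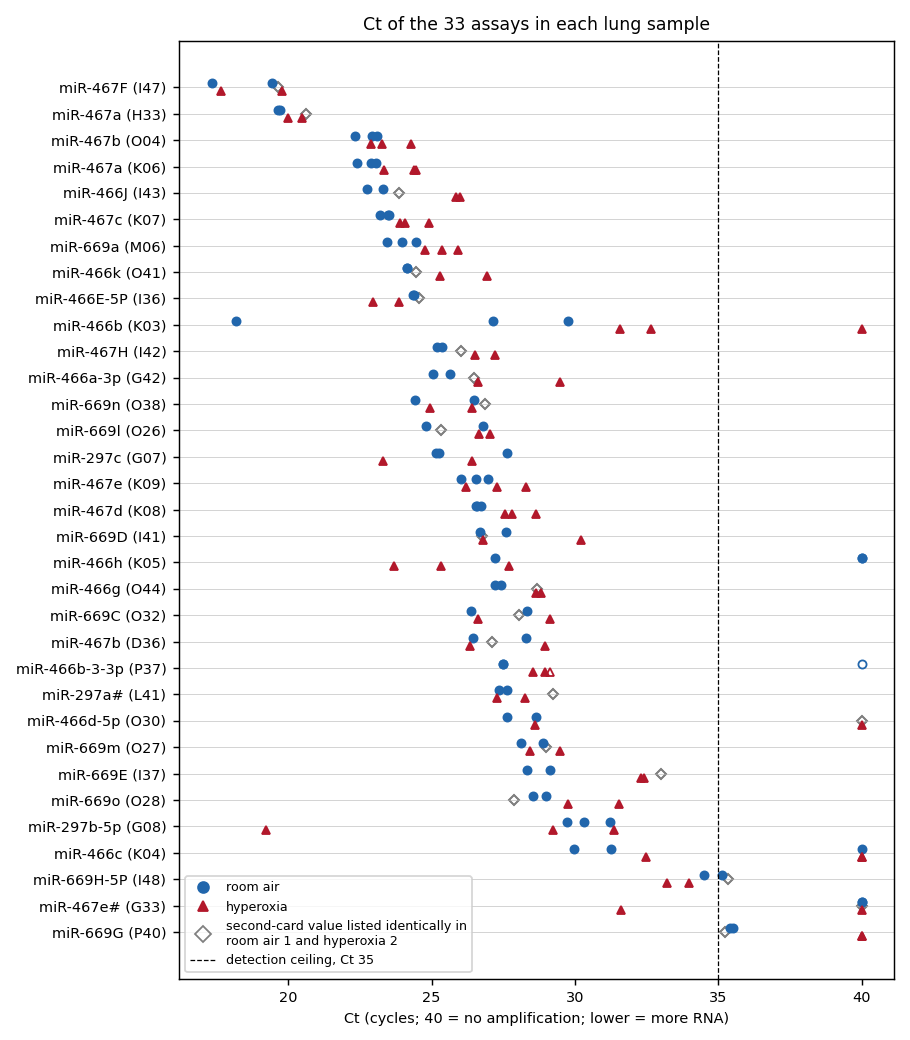
Ct (x axis, cycles) of all 33 assays (y axis, ordered by room air mean) in each sample; blue circles are room air, red triangles hyperoxia, grey diamonds the second-card value listed identically for room air 1 and hyperoxia 2, and open symbols the P37 values of these samples, which differ. miR-466J, miR-669E and miR-466g show groups that do not overlap, while miR-466b (18.2 in room air 1) and miR-297b-5p (19.2 in hyperoxia 2) each have a sample far from the rest.

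Of the 9 tested miR-467 assays, 5 lay on the first card, with 3 samples a group. miR-467a of well K06, whose name matches 10 duplicated hairpins in Sfmbt2, had Ct values of 22.4, 23.1 and 22.9 in room air against 24.5, 23.3 and 24.4 in hyperoxia. All 3 hyperoxia samples came later than all 3 room air samples, and this also held relative to the card mean, at -0.50 ± 0.24 (limma adjusted p = 0.632). The miR-467a assay of well H33 pointed the same way, with a Ct of 19.7 and 19.6 in room air against 20.0 and 20.5 in hyperoxia and a difference of -0.37 ± 0.36 (limma adjusted p = 0.775). It was 0.29 with the first card's mean as reference. Once the second card's numbers are moved by 3 wells to meet its names, these wells carry different assay numbers.

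miR-467d read 26.7, 26.6 and 26.6 in room air against 28.6, 27.8 and 27.6 in hyperoxia. These Ct values did not overlap, but relative to the card mean the groups did, and the difference was -0.63 ± 0.38 (limma adjusted p = 0.689). It ran from -0.96 without hyperoxia replicate 3 to -0.46 without hyperoxia replicate 2. miR-467c had a Ct of 23.5, 23.5 and 23.2 in room air against 24.9, 24.1 and 23.9 in hyperoxia, and relative to the card mean stood at -0.13 ± 0.38. Its sign turned when room air replicate 3 (0.077), hyperoxia replicate 1 (0.0031) or hyperoxia replicate 2 (0.031) was left out.

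miR-467b, the lipoprotein lipase repressor, was read at 22.3, 22.9 and 23.1 in room air against 24.3, 22.9 and 23.3 in hyperoxia in well O04. Its groups overlapped, and its log2 fold change was 0.07 ± 0.30 (-0.16 without hyperoxia replicate 3). The other miR-467b assay, in well D36, had a Ct of 26.4 and 28.3 in room air against 29.0 and 26.3 in hyperoxia, with a log2 fold change of -0.09 ± 1.27. Neither assay separated the groups. miR-467e was at 0.02 ± 0.53, with Ct values of 26.98, 26.5 and 26.0 in room air against 28.3, 26.2 and 27.3 in hyperoxia. Without room air replicate 1, hyperoxia replicate 2 or hyperoxia replicate 3 it was at -0.39, -0.24 or -0.09.

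On the second card, miR-467H, whose hairpin lies on chromosome 9, had a Ct of 25.4 and 25.2 in room air against 27.2 and 26.5 in hyperoxia. The groups did not overlap, and the log2 fold change was -1.40 ± 0.42, 2.65-fold lower in hyperoxia (limma adjusted p = 0.491). The shared value, 26.0, lay between the groups, and keeping it in both samples gave -0.93. miR-467F, the CA-rich member, read 17.3 and 19.4 in room air against 19.8 and 17.7 in hyperoxia. Its groups overlapped fully and its log2 fold change was -0.15 ± 1.19 (limma adjusted p = 0.969).

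Among the miR-669 assays, miR-669a is the one on the first card, and its name matches 12 hairpins in Sfmbt2. It had Ct values of 23.5, 24.4 and 24.0 in room air against 25.9, 24.8 and 25.4 in hyperoxia. The groups did not overlap on either scale, and the log2 fold change was -0.63 ± 0.28, 1.55-fold lower in hyperoxia (limma adjusted p = 0.610). Over the alternatives it ran from -1.40 to -0.52.

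miR-669E had the lowest log2 fold change of the family. Its Ct was 28.3 and 29.1 in room air against 32.4 and 32.3 in hyperoxia, so both hyperoxia samples lay more than 3 cycles later than either room air sample. Its log2 fold change was -3.46 ± 0.47, 10.99-fold lower in hyperoxia (limma adjusted p = 0.314). The value shared by room air replicate 1 and hyperoxia replicate 2 was 33.01, close to the hyperoxia samples. Kept in room air it moved the change to -2.06, and kept in hyperoxia to -3.70, with adjusted p of 0.722 and 0.187. A Ct ceiling of 32 removed miR-669E from the test.

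miR-669o read 29.0 and 28.5 in room air against 29.8 and 31.5 in hyperoxia, with no overlap and a difference of -1.72 ± 0.73 (limma adjusted p = 0.644). Its shared value of 27.9 was earlier than all 4 of these, and kept in hyperoxia it gave -0.82. miR-669D was at -1.15 ± 1.36, with 30.2 in hyperoxia replicate 1 against 26.8 in hyperoxia replicate 3 and 27.6 and 26.7 in room air. The remaining miR-669 assays, miR-669l, miR-669C, miR-669m and miR-669n, lay between -0.84 and -0.03 with overlapping groups and limma adjusted p of 0.772 to 0.989. miR-669l had the Ct values 26.8 and 24.8 in room air against 27.02 and 26.6 in hyperoxia, a spread within room air wider than the gap between the groups.

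Of the miR-466 assays, miR-466J had the smallest limma p of the whole set. It read 23.3 and 22.8 in room air against 26.0 and 25.9 in hyperoxia, with a difference of -2.71 ± 0.35, 6.55-fold lower in hyperoxia (limma adjusted p = 0.314). The samples of each group lay close together and the groups did not overlap. The shared value, 23.9, fell between them and nearer to room air, and kept in room air or in hyperoxia it gave -2.46 or -2.05. By RefSeq its hairpin is on chromosome 10, outside Sfmbt2.

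miR-466k, with a hairpin on chromosome 3, was read at 24.1 and 24.1 in room air against 26.9 and 25.3 in hyperoxia, at -1.79 ± 0.71 (limma adjusted p = 0.630). miR-466g, from Sfmbt2, was at 27.4 and 27.2 in room air against 28.8 and 28.6 in hyperoxia. Its log2 fold change was -1.21 ± 0.32 (limma adjusted p = 0.446). The shared value of 28.7 lay with the hyperoxia samples, and kept in room air it gave -0.80. Both assays had groups that did not overlap. With the first card's mean as reference for both cards, miR-466k was at -1.12 and miR-466g at -0.55, and miR-467H above at -0.74.

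miR-466b-3-3p is the 1 second-card assay of the set whose values in room air replicate 1 and hyperoxia replicate 2 differ, at 40 and 29.1. The other samples read 27.5 and 27.5 in room air against 29.0 and 28.5 in hyperoxia. Its log2 fold change was -1.08 ± 0.36 (limma adjusted p = 0.528), -1.24 with the 5 samples that amplified, -0.70 with the card's median Ct as reference and -0.41 with the first card's mean. miR-466a-3p read 25.1 and 25.6 in room air against 26.6 and 29.5 in hyperoxia, at -2.53 ± 1.12 (limma adjusted p = 0.658), and its gap rests mainly on hyperoxia replicate 3.

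Among the tested miR-466 assays, miR-466E-5P was the exception. It had a Ct of 24.4 and 24.4 in room air against 23.9 and 22.9 in hyperoxia, earlier in both hyperoxia samples. The log2 fold change was 1.14 ± 0.48, 2.20-fold higher in hyperoxia (limma adjusted p = 0.644). The shared value, 24.6, lay on the room air side, and kept in hyperoxia it gave 0.72. The rat assay for miR-466b had by far the widest spread in its family: 18.2, 27.1 and 29.8 in room air, then 31.6, no amplification and 32.7 in hyperoxia. Its log2 fold change of -6.08 ± 3.50 (limma adjusted p = 0.689) used 2 hyperoxia samples and was -2.82 without room air replicate 1.

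Both first-card miR-297 assays lay in plate row G, where the median SD within groups was 2.16 on the log2 scale over 22 tested assays, against 0.42 in the other rows. miR-297b-5p read 29.7, 31.2 and 30.3 in room air against 31.4, 19.2 and 29.2 in hyperoxia. Its log2 fold change of 4.57 ± 2.96 (limma adjusted p = 0.689) was 1.15 without hyperoxia replicate 2, the sample that stands apart. miR-297c read 25.3, 25.1 and 27.6 in room air against 23.3 and 26.4 in hyperoxia replicates 2 and 3, with a blank well in replicate 1, and was at 1.73 ± 1.06. It ran from 1.02 without room air replicate 3 to 2.22 without room air replicate 2. The second-card assay miR-297a# was at -0.09 ± 0.50, with 27.6 and 27.3 in room air against 28.3 and 27.3 in hyperoxia.

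Another 6 assays were detected in too few samples to be tested. miR-466h, the Bcl2l2 repressor, amplified in all 3 hyperoxia samples, at 27.7, 25.3 and 23.7, but in room air replicate 3 alone, at 27.2. The rat miR-466c assay was detected at 31.3 and 30.0 in room air replicates 1 and 2 and at 32.5 in hyperoxia replicate 3. miR-466d-5p was detected in both room air samples used (27.6 and 28.7) and in hyperoxia replicate 3 (28.6). miR-467e# amplified in hyperoxia replicate 3 alone, at 31.6. miR-669H-5P hovered at the ceiling, at 35.1 and 34.5 in room air against 34.0 and 33.2 in hyperoxia. miR-669G never reached it, at 35.4 and 35.5 in room air and no amplification in hyperoxia replicates 1 and 3.

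Groups that did not overlap relative to the card mean were counted for each card. On the first card these were 3 of 9 on the lower side and 0 on the higher, where 16.2% and 6.29% of all its assays were. On the second card, with 2 samples against 2, they were 9 of 18 lower and 1 of 18 higher, where 16.9% and 12.4% of all its assays were. Assays of like sequence read by the same samples are not independent, and no test of these counts was made.

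Assays with hairpins within Sfmbt2 and those with hairpins elsewhere were set side by side. Of the 20 tested assays matched by name to a hairpin in Sfmbt2, 15 were negative with a median of -0.36. Within the second card, where all the others lie, 11 of 12 were negative with a median of -0.60. The 5 assays whose hairpins lie on chromosomes 3, 9, 10 and 11 were all negative, from -2.71 to -0.03 with a median of -1.40. With the first card's mean for both cards, 6 of the 12 second-card Sfmbt2 assays were negative, with a median of 0.06. Of the 5 others, 3 were negative, with a median of -0.74. All assays of that card then had a median of 0.57, and 21.3% were negative. With each card's median Ct, 6 of 12 were negative with a median of -0.23 and 3 of 5 with a median of -1.03. Over all assays of the second card, 32.5% were then negative with a median of 0.28. The difference between the 2 kinds of assay was not tested. The second-card assay miR-466a-3p (-2.53), which matched no hairpin name but may belong to the Mir466 hairpin in Sfmbt2, was counted in neither kind. Negative values were not limited to miRNAs of the Sfmbt2 intron, and 56.6% of all assays tested on the second card were negative as reported. Of the 5 others, miR-669n (-0.03 ± 0.94) and miR-467F (-0.15 ± 1.19) lay within their SE of 0.

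The 6 first-card miR-467 and miR-669a assays, measured in all samples outside row G, show how the set varied between samples. Relative to each assay's room air mean, their median was -0.20, -0.003 and 0.25 in room air replicates 1, 2 and 3. It was -0.63, -0.36 and 0.083 in hyperoxia replicates 1, 2 and 3. Hyperoxia replicate 3 thus lay within the room air range and hyperoxia replicate 1 was lowest. Across the 6 samples, Pearson's r between pairs of these assays ran from -0.15 to 0.87 with a median of 0.31 over 15 pairs, a description with no test. miR-467a and miR-669a were the most alike (0.87), followed by miR-467c and miR-467d (0.85). All pairs share the same samples and the same card reference.

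**Figure D3:**
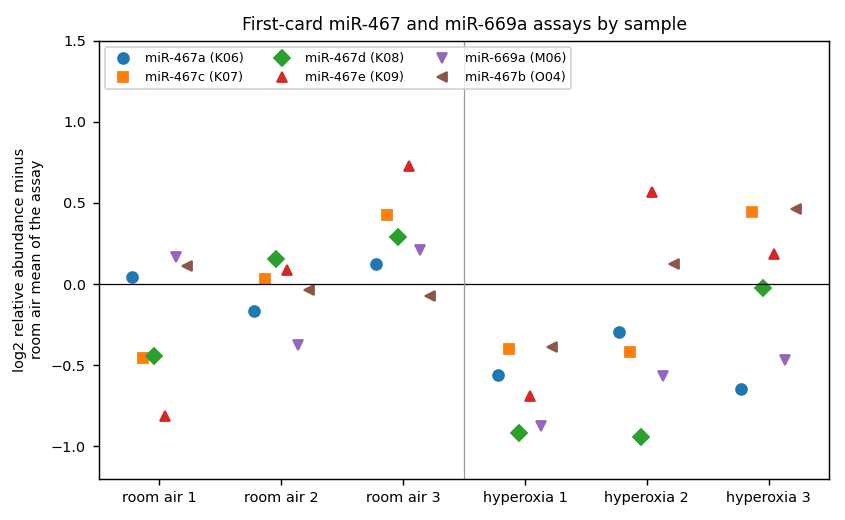
Log2 relative abundance of 6 first-card assays minus each assay's room air mean (y axis) in the 3 room air and 3 hyperoxia samples (x axis), 1 point per assay and sample. miR-467a and miR-669a lie below their room air values in all hyperoxia samples, while miR-467b, miR-467c and miR-467e overlap with room air.

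The reference used sets where 0 lies, and it moved the families with all other assays. Their median was -0.46 with each card's median Ct as reference, -0.57 with quantile normalization and -0.79 with the first card's U6 wells. It was -1.07 with the small RNA controls, -1.02 without normalization and -0.18 with the first card's mean for both cards. The median of all assays was 0.04, -0.21, -0.27, -0.62, -0.62 and 0.18 in the same order. The gap between the families and all assays thus ran from -0.52 to -0.35, being -0.38 as reported. A change of reference moves the assays of a card largely together, so a steady gap is partly built in. With the first card alone the gap was 0.008. Counts of negative assays moved more: with each card's median, 16 of 27 were negative, among them 10 of 18 on the second card, where 32.5% of all assays were.

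**Figure D4:**
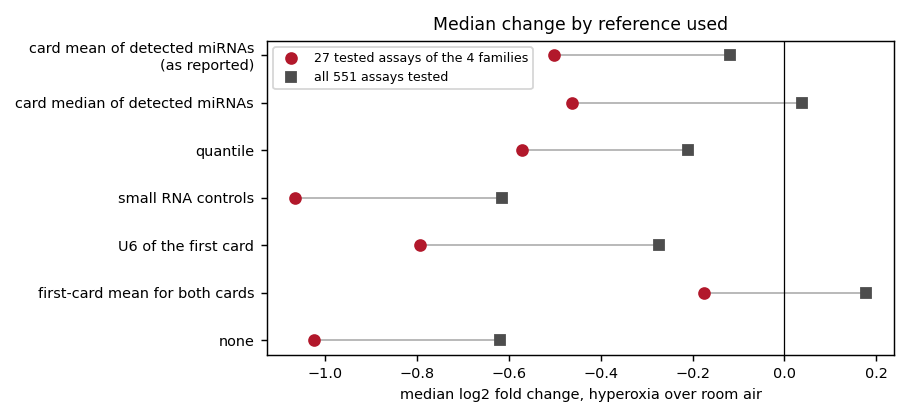
Median log2 fold change of hyperoxia over room air (x axis) of the 27 tested assays (circles) and of all 551 assays (squares) under 7 choices of reference (y axis). The circles lie left of the squares in each, by 0.35 to 0.52. For the first card alone, not drawn, the medians were -0.126 and -0.135.

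The authors' deposited table gives its own fold of hyperoxia over room air for each assay, in which a Ct of 40 counts as a measurement. In the authors' deposited table miR-466h stands at 1558, miR-466b at 0.0016, miR-297b-5p at 18.9, miR-466b-3-3p at 9.29 and miR-467e# at 9.43. All of these but miR-297b-5p include at least 1 well at 40. miR-466b-3-3p is there higher in hyperoxia because room air replicate 1 is at 40, whereas the samples that amplified read later in hyperoxia. For assays without such wells the authors' deposited table holds 0.563 for miR-467a of well K06, 0.514 for miR-669a and 0.354 for miR-466J. The authors' averages cover all 3 samples per group, so shared second-card values count in both. The miR-466J fold here, with those left out, was 0.153. The reference differs too. The authors' differences of 0.828 cycles for miR-467a (K06) and 0.961 for miR-669a lie near the -0.829 and -0.962 that the first card's U6 gave here. As reported here, these 2 were at -0.50 and -0.63. The authors' fold was 0.835 for miR-467b (O04) and 0.809 for miR-467e, whose log2 fold changes here were 0.07 and 0.02. Among tested second-card assays without wells at 40, the authors' fold was also below 1 for miR-669E, miR-466a-3p, miR-466k, miR-669o, miR-467H, miR-466g, miR-669D and miR-669l. It was above 1 for miR-466E-5P. It was also 1.045 to 1.222 for miR-467b (D36), miR-467a (H33), miR-467F, miR-297a#, miR-669m, miR-669C and miR-669n, all negative here.

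Markers of lung and other cell types were looked at beside these results. Endothelial (2 of 2 names), epithelial (6 of 6) and mesenchymal (4 of 4) markers were all detected, with mean Ct values from 12.5 to 23.4, and 0 of their 16 wells passed limma's adjusted threshold. The leukocyte, erythroid, striated muscle and liver lists had 14 tested wells and 0 past the threshold. On the first card striated muscle markers summed to 11.2 to 23.3 in room air and 4.99 to 11.6 in hyperoxia on the relative scale. Endothelial ones summed to 1111 to 2379 and 1094 to 1256. Of the 6 tested muscle wells over both cards 5 were negative, and miR-206 on the second card had a log2 fold change of 1.31. Epithelial sums were 160.1 to 180.5 in room air and 107.6 to 186.2 in hyperoxia. Leukocyte sums were 92.13 to 119.6 and 66.53 to 136.9, and erythroid ones 0.5121 to 5.281 and 1.096 to 8.966. Of the 5 tested leukocyte wells over both cards 2 were negative, miR-150 (-1.09) and miR-142-5p (-0.04). The 2 miR-223 wells (0.94 and 0.89) and miR-142-3p (0.60) were positive. Liver sums were 0.05061 to 0.1606 and 0.008347 to 0.1967. The highest epithelial, leukocyte, erythroid and liver sums were each in a hyperoxia sample. The erythroid sum is miR-451 alone (0.71 ± 1.20), as miR-144 lies on the second card and was at -1.29 ± 0.32. That list was thus split, with 1 of 2 negative and a median log2 fold change of -0.29. Mesenchymal markers summed to 333 to 395 in room air and 253 to 332 in hyperoxia. All 3 hyperoxia samples lay below all 3 room air samples, with hyperoxia replicate 1 at 331.7 and room air replicate 1 at 332.8. The list itself was split, as 3 of its 6 tested wells over both cards were negative, with a median log2 fold change of -0.03. The part of these in the values above was not tested.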

How the data were processed

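Total RNA of right lung was reverse transcribed with Megaplex rodent primer pools A and B and pre-amplified for 12 cycles, per the labels' protocols. The authors deposited 1 table of 768 wells with a Ct per sample, read here as 2 cards of 384 wells. Instrument, threshold and software are not given in the sources used here. The deposited difference between groups is in cycles, a log2 scale, and the deposited fold is a ratio set by the authors with no test.

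Here, Ct values at or above 35 were treated as missing. Each sample was centred on the mean of the miRNAs detected in all samples used (282 on the first card, 249 on the second). An assay detected in at least 2 samples per group was tested with limma 3.58.1 in R 4.3.3 (lmFit, eBayes, two-sided, Benjamini-Hochberg over 551 assays). The prior had 1.62 degrees of freedom. Precision is limited by how few samples there are.

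The assays and lists were chosen with earlier results of these data known. Values in every sample are given for tested assays with groups that do not overlap, a log2 fold change of at least 1 in size, an unadjusted p under 0.05, a low Ct or several assays per name, and for assays of 1 group only. UG-rich miR-574-5p and miR-1187, listed for comparison, matched no assay name. Samples were not treated as pairs by replicate number. The closing section gives the effect of 25 alternatives in normalization, Ct ceiling, detection, shared values, cards, replicates and names.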

Additional observations from a re-analysis of the deposited data

Results flagged for a closer look

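Signal in hyperoxia above room air appeared in 3 wells that were detected in too few samples to be tested. The lowest Ct in hyperoxia was 23.673 for miR-466h, where room air replicates 1 and 2 did not amplify and replicate 3 read 27.2. For miR-467e# it was 31.59 in hyperoxia replicate 3, with no amplification in any other sample. For miR-669H-5P it was 33.213, against 34.5 as the lowest room air value. Groups of 3 samples were not screened for outlying values.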

How the results depend on the processing

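Of 535 values of the 27 assays under the alternatives, 497 kept their direction and 38 changed sign, in 11 assays. None of these passed limma's threshold as reported or under those alternatives. The other 16 assays did not change sign in the alternatives run. With each card's median Ct as reference, miR-467e was at -5e-04, miR-467b (D36) at 0.282, miR-467a (H33) at 0.006, miR-467F at 0.2275, miR-297a# at 0.283, miR-669m at 0.1085, miR-669C at 0.018 and miR-669n at 0.3455. With the first card's mean for both cards, miR-467b (D36) was at 0.568, miR-467a (H33) at 0.292, miR-467F at 0.513, miR-297a# at 0.569, miR-669m at 0.394, miR-669C at 0.304 and miR-669n at 0.631. Quantile normalization put miR-467c at 0.0219, miR-467b (D36) at 0.0786 and miR-669n at 0.0362. The first card's U6 put miR-467e at -0.306, miR-467b (O04) at -0.262 and miR-669n at 0.014. The small RNA controls put the same miR-467e and miR-467b wells at -0.542 and -0.498 and the median at -1.066; no normalization put them at -0.739, -0.695 and -1.024. Shared values kept in room air put miR-467F at 0.244, miR-297a# at 0.454 and miR-669n at 0.406, and kept in hyperoxia miR-467b (D36) at 0.0622. With second-card wells named by assay number, miR-297a# was at 1.23 and miR-669l at 0.609.

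Over all assays, limma called 1 with a Ct ceiling of 32, 8 with a Ct of 40 as a measurement, 2 without a detection filter, 1 on the first card alone and 1 with a trended, robust prior. Of the families, only miR-669G was called, 1 assay with a Ct of 40 as a measurement (-4.36, limma adjusted p = 0.0467), where it was not amplified in hyperoxia replicates 1 and 3. Leaving out each sample in turn gave 0 to 1 calls over all assays, 0 of them in the families, 3 to 23 negative assays and a median from -0.526 to 0.144. The lower counts come from leaving out a sample used on the second card, which leaves that card 1 sample in a group and untested. The median was then -0.110 without room air replicate 2, 0.0187 without room air replicate 3, 0.144 without hyperoxia replicate 1 and -0.441 without hyperoxia replicate 3. The same runs gave -0.441 to 0.0769 for miR-467c, -0.385 to 0.377 for miR-467e and -0.164 to 0.284 for miR-467b (O04). The first card alone gave 5 negative assays. Samples were not treated as pairs by replicate number. Deviations of same-numbered samples correlated at -0.336, -0.234 and -0.176, and those of unlike-numbered samples at -0.249 to 0.361. The deviations are taken within groups of 3, so these values cannot show whether the samples were paired. A fit with the replicate block was possible for the first card alone, with 0 calls among 301 assays, where the first card alone without the block had 1 among 302. It left 5 negative assays of 9 in the families, as without it. Restricting the set to assays matched by name to a hairpin in Sfmbt2, chosen after seeing the data, gave 15 negative of 20 and a median of -0.365.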
